A study of Mus musculus with 5 samples.

Results

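The genes described here are the giant genes of the mouse autosomes: protein-coding genes whose annotated end lies 500 kb or more beyond their start. In the RefSeq annotation of GRCm38.p6, the assembly behind mm10, 210 of 20560 protein-coding genes on chromosomes 1 to 19 met this rule, after 6 genes with symbols starting Fox or Gm had been left out. They run from 502 kb (Edil3) to 2271 kb (Ptprd), with a median of 735 kb, and 55 of them span 1000 kb or more. Together they cover 178 Mb, which is 18.1% of all sequence lying in protein-coding bodies.

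The study profiled CTCF binding by ChIP-seq in NIH3T3, a line of mouse embryonic fibroblasts. Every library came from cells carrying H2B-mCherry, the rtTA3G transactivator and a CDX2 gene under the TRE3G promoter, which doxycycline switches on. Of the 5 libraries, 2 were CTCF precipitations after 6 h of doxycycline, with a labelled dose of 500 ng/µL, 2 were CTCF precipitations of untreated cells and 1 was untreated input. The values analysed are 1 list of 22756 peak intervals that merges both conditions, of which 22554 lie on chromosomes 1 to 19. The list ties no peak to a library and gives no height, so CDX2 induction could not be compared, the depth behind a peak is unknown, and there is no replicate spread. With positions alone, neither the expression of these genes nor the fibroblast identity of the cells could be checked against markers.

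CTCF is a zinc finger protein that binds DNA in an orientation-dependent way. Cohesin, which extrudes chromatin loops, is halted where it meets bound CTCF, so that CTCF sites mark many loop anchors and domain borders. Most giant genes encode proteins of neurons, among them cell adhesion molecules, ion channels and synaptic scaffolds, and their length lies almost wholly in introns. Several of them underlie common fragile sites, stretches that tend to break when replication is slowed.

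Giant genes held few CTCF peaks for their length. Their bodies contained 626 peaks, which is 5.63% of the peaks in protein-coding bodies and 2.78% of all peaks on the autosomes. This was 0.353 peaks per 100 kb (exact 95% Poisson interval 0.325 to 0.381), against 1.30 (1.28 to 1.33) in the bodies of all other protein-coding genes. The ratio was 0.271, with an interval of 0.249 to 0.293 from the exact two-sided binomial test. That interval, like all others given here, covers counting error only and treats neighbouring peaks as independent. The ratio was 0.471 against bodies of 200 to under 500 kb alone, a comparison added after the data had been seen.

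Peak density fell with each step in gene length. Genes under 50 kb had 2.07 peaks per 100 kb, genes of 50 to 100 kb had 1.30, genes of 100 to 200 kb had 0.993 and genes of 200 to 500 kb had 0.748. Within the giant genes the fall went on: 108 genes under 750 kb had 0.446 (0.396 to 0.501), 47 genes of 750 to 1000 kb had 0.356 (0.300 to 0.419), and the 55 longest had 0.269 (0.233 to 0.309). The intervals of neighbouring classes among the giants overlapped slightly, and those of the shortest and longest class did not. Just inside the threshold of 500 kb, Edil3 and Stpg2 had no peak, Dock1 and Samd12 had 1 each and Car10 had 4, while just outside it Dnm3 had 6, Lrrc7 had 2, Cacna1e had 4, Ank3 had 8 and Abca13 had 3.

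**Figure D1:**
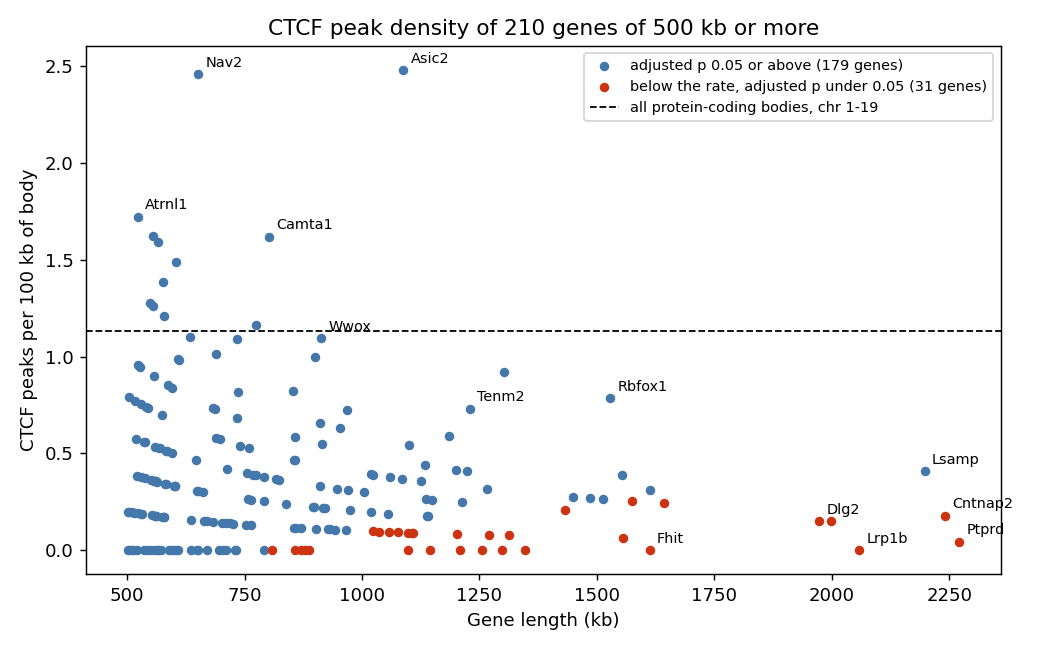
Each point is 1 of the 210 giant genes, with its length in kb on the horizontal axis and CTCF peaks per 100 kb of body on the vertical axis. The dashed line is the rate of all protein-coding bodies, 1.13 per 100 kb; 12 genes lie above it and 198 below, and the 31 in red passed the test.

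Gene by gene, the median giant had 0.264 peaks per 100 kb, with quartiles of 0.104 and 0.528. No peak at all lay in 40 genes, 1 peak in 44, and 2 or 3 in 57, while 45 genes had 5 or more. The share of empty genes was larger in each class of shorter genes, from 25.9% for genes of 200 to 500 kb to 77.5% for genes under 50 kb. Only 6 genes had 10 or more, and these held 90 peaks. The rate over all protein-coding bodies of the autosomes was 1.13 peaks per 100 kb, and 198 giants (94.3%) had fewer peaks than that rate gives for their length. So did 75.2% of genes of 200 to 500 kb and 74.0% of all protein-coding genes, whose median was 0 because most hold no peak. Over all 210 genes it gives 2015 peaks, against 627 counted gene by gene, where a peak shared by the overlapping Iqschfp and Schip1 counts for both.

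In an exact two-sided Poisson test of every protein-coding gene against this rate, with Benjamini-Hochberg adjustment over all 20560 genes, 31 giants lay below the rate and none above it. Before adjustment Asic2 (exact p = 0.000396) and Nav2 (exact p = 0.00777) were the giants above the rate with p under 0.05. At the adjusted threshold 0.151% of all genes were called below and 0.355% above. The 31 giants are all the genes called below in the whole table, because a gene must be long before an absence of peaks can pass: the shortest gene called with no peak was 809 kb, and the shortest with 1 peak was 1023 kb. Among 729 genes of 200 to under 500 kb, 0.0% were called below and 0.823% above. The count therefore depends on length as well as density, and a called gene need not stand out among giants. Csmd1 at 0.243 and Ctnna3 at 0.254 per 100 kb were called, near the giant median of 0.264. No gene was tested against the rate of the giants alone. The count of giants called below was 17 without chromosome 11, 15 against the rate of the whole autosomal span and 4 with only peaks of at least median width.

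Some of the longest giants held no peak. Lrp1b, which encodes a large receptor of the LDL receptor family (chr2:40595290-42653598, 2058 kb), held 0 peaks where the rate gives 23.3, so that its density lay under 0.179 per 100 kb (adjusted p = 7.98e-07, exact Poisson test). The gene sits in a stretch of 3504 kb without any peak, and 250 kb on each side of it held none. Fhit, a dinucleotide hydrolase gene and the classic fragile-site gene (chr14:9550092-11162061, 1612 kb), held 0 where 18.2 are given by the rate (adjusted p = 6.21e-05, exact Poisson test). Its flanks were not empty, with 2 peaks within 250 kb, and the peak-free stretch around it was 1914 kb. Each of these genes is thus wholly peak-free, while only Fhit has peaks close by.

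Further giants of over 1000 kb with no peak were Naaladl2 (1346 kb), Tenm3, which encodes a teneurin of synaptic wiring (1297 kb), Lingo2 (1255 kb), Nkain2 (1208 kb), Sgcz, a sarcoglycan gene (1144 kb), and Dcc, the netrin receptor of axon guidance (1098 kb). All 6 passed the test below the rate, with adjusted p from 0.000670 (Naaladl2) to 0.00491 (Dcc) in the exact Poisson test. None of the 6 passed with only peaks of at least median width, where Fhit, Robo2 and Dlg2 did not pass either, and Dcc did not pass against the rate of its own chromosome (adjusted p = 0.0830, exact Poisson test). Their surroundings differed. Lingo2 lay in 4642 kb without a peak and Naaladl2 in 3344 kb, whereas the nearest peak to Tenm3 was 3.11 kb from its body and its flanks held 4 peaks. The protocadherin gene Pcdh9 (879 kb) lay in a peak-free stretch of 4190 kb. Nell1 (888 kb) was empty as well, and its 250 kb flanks held 7 peaks.

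The 40 empty genes made up 31.7 Mb and had a median length of 661 kb. For 14 of them the flanks of 250 kb on each side were empty too. The median peak-free stretch around an empty gene was 1715 kb, and the longest, 5179 kb, surrounded Edil3, the shortest of all giants. Of the empty genes 13 passed the test below the rate. The other 27, such as the glutamate receptor genes Grik2 (696 kb) and Grm5 (551 kb) and the GABA receptor gene Gabrg3 (671 kb), are too short for that at this number of peaks. An interval that is not listed may have lacked reads or height, so an empty gene is one without a listed peak.

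Other very long genes held a peak or a few, far apart. Ptprd, a receptor phosphatase of synapse formation and the longest giant (chr4:75941237-78211742), had 1 peak where the rate gives 25.7 (adjusted p = 1.29e-06, exact Poisson test). Cntnap2, a neurexin-family adhesion gene (2241 kb), had 4 where it gives 25.3 (adjusted p = 0.000583, exact Poisson test). These 4 lay at 1901, 1954, 2128 and 2131 kb from its transcription start, so the first 1901 kb were peak-free. Dlg2, which encodes the postsynaptic scaffold PSD-93, had 3 peaks at 981, 1551 and 1848 kb, and Macrod2 had 3 at 276, 532 and 1859 kb. Robo2, an axon guidance receptor gene of 1555 kb, had a single peak 104 kb from its start. All of these passed the test below the rate.

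Long peak-free stretches were common. The longest stretch without a peak inside a giant had a median of 498 kb, exceeded 500 kb in 105 genes and exceeded 1000 kb in 17. In contrast to Cntnap2, Lsamp, a limbic adhesion gene of nearly the same length (2197 kb), had 9 peaks that ran from its start to its end, and its density of 0.410 per 100 kb did not pass the test (adjusted p = 0.0805, exact Poisson test). Nrxn3, a presynaptic neurexin gene (1612 kb), had 5 peaks between 489 and 783 kb from its start and none in its last 830 kb.

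The fullest giant was Asic2, an acid-sensing ion channel gene (chr11:80880163-81968396), with 27 peaks in 1088 kb. This was 2.48 per 100 kb (1.64 to 3.61), or 2.19 times the 12.3 peaks given by length, but the adjusted p was 0.0739 in the exact Poisson test. Peaks lay at 27.2 and 141 kb from the start, then from 323 kb onward up to 1062 kb, and the median spacing over the whole gene was 21.0 kb. Its surroundings were about as full: its flanks of 250 kb held 13 peaks, or 2.60 per 100 kb, and the other protein-coding bodies of chromosome 11 had 2.55. Against the rate of its own chromosome its count was 1.02 times that given by length, while against the lower rate of the whole autosomal span it was 2.64 times and passed (adjusted p = 0.00800, exact Poisson test).

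Nav2, a neuron navigator gene of cytoskeletal guidance (chr7:48959063-49610090), followed with 16 peaks in 651 kb, or 2.46 per 100 kb (1.40 to 3.99). Its first 162 kb were empty, after which peaks were spaced by a median of 17.1 kb, and its flanks were equally full at 2.40 per 100 kb. Camta1, a calmodulin-binding transcription activator gene (802 kb), had 13 peaks at 1.62 per 100 kb. None lay in its first 251 kb and 11 lay beyond 500 kb, and its flanks were fuller than its body at 3.60 per 100 kb. Neither gene passed the test above the rate. With only peaks of at least median width, Camta1 had 0.860 times the peaks given by length.

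**Figure D2:**
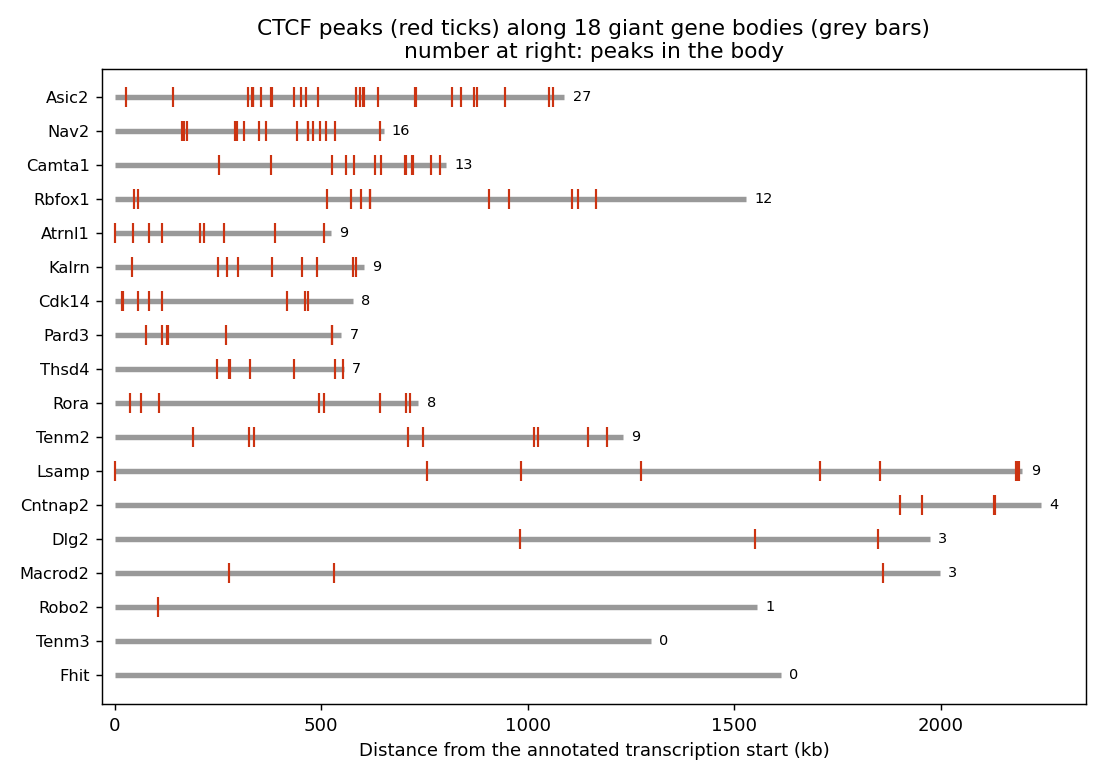
Grey bars are 18 giant genes drawn to scale from the annotated transcription start (kb), red ticks are CTCF peaks, and the number at the right is the count in the body. Asic2 with 27 and Nav2 with 16 stand above Cntnap2 with 4, crowded near its end, and above Tenm3 and Fhit with 0; Lrp1b and Ptprd are not drawn because the sequence table used gave no strand for them.

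The remaining genes among the 10 densest were Atrnl1 with 9 peaks (1.72 per 100 kb), the adhesion gene Kirrel3 with 9 (1.62), the methyltransferase gene Smyd3 with 9 (1.59), Kalrn, a signalling gene of dendritic spines, with 9 (1.49), the kinase gene Cdk14 with 8 (1.39), the cell polarity gene Pard3 with 7 (1.28) and Thsd4 with 7 (1.26). All of them were 522 to 604 kb long and their intervals included the rate of 1.13. With only peaks of at least median width, Smyd3, Pard3 and Thsd4 lay below the rate of such peaks without passing the test. Kirrel3 differed from the others in its surroundings, with 1 peak in its flanks (0.200 per 100 kb). Rbfox1, a neuronal splicing factor gene of 1528 kb, likewise had 1 peak in its flanks, and 12 in its body (0.786 per 100 kb).

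Giant bodies were also emptier than the DNA beside them. The 250 kb on each side, leaving out bases in another giant, held 621 peaks in 102 Mb, or 0.609 per 100 kb. The ratio of body to flank was 0.578 (0.517 to 0.647; exact two-sided binomial p = 8.56e-22). The body was the emptier part in 132 genes and the fuller part in 64, and both held no peak in 14. The flanks were themselves below the rate of 1.13 in protein-coding bodies.

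The pattern was not limited to a few chromosomes. On each of 19 autosomes giant bodies had fewer peaks per 100 kb than other protein-coding bodies, and on 18 the exact 95% Poisson intervals did not overlap. The exception was chromosome 18, with only 2 giants, at 0.481 (0.220 to 0.913) against 0.807 (0.711 to 0.914). The 6 giants of chromosome 11, the richest chromosome, had 1.08 per 100 kb (0.814 to 1.41) against 2.55 in its other bodies, and none of the 6 was empty. The 15 giants of chromosome 14 had the lowest rate, 0.184 (0.119 to 0.271), with 5 of them empty. On chromosome 15 giants reached 0.245, against 1.90 in other bodies, the smallest ratio at 0.129. Asic2 alone held 27 of the 54 peaks on chromosome 11. Without it, an alternative added after the data had been seen, the other 5 giants there had 0.693 per 100 kb (0.456 to 1.01), each of them between 0.393 and 0.898.

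**Figure D3:**
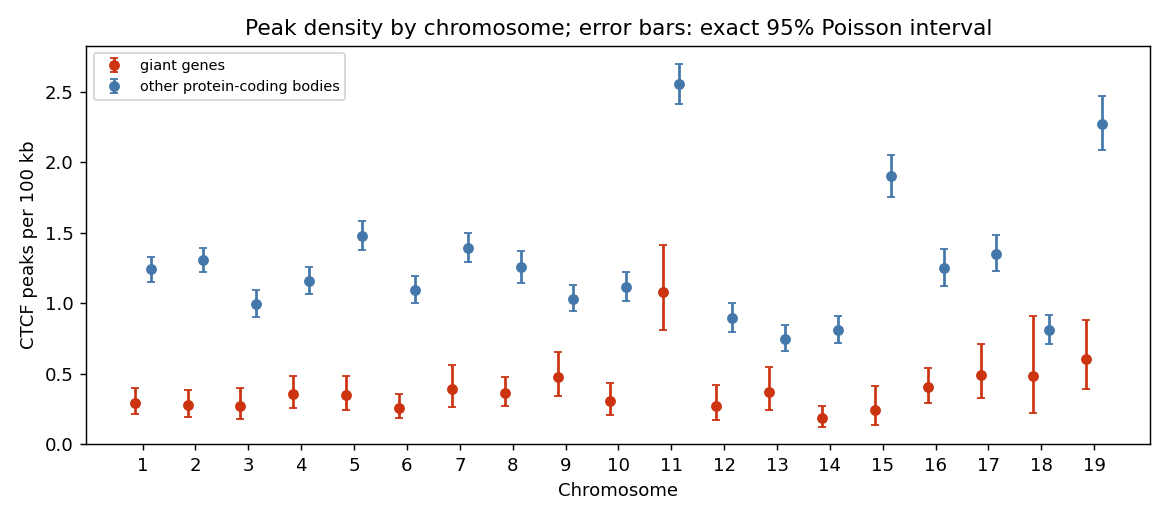
Peaks per 100 kb in giant bodies (red) and in other protein-coding bodies (blue) for chromosomes 1 to 19, with exact 95% Poisson intervals as error bars. Red lies under blue on all 19, and the bars overlap on chromosome 18 alone.

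Along the gene, peaks gathered toward the 3′ end. The last 10% of the body held 117 of 626 peaks, or 18.7% (exact 95% interval 15.7 to 22.0%), where an even spread gives 10% (exact two-sided binomial test, adjusted p = 1.12e-10). The first 10% held 54, or 8.63% (6.55 to 11.1%), which did not differ beyond counting error (adjusted p = 0.286, exact binomial test). Of 10 equal parts the others held 40 to 81 peaks. The fourth came next with 81 peaks in 54 genes (12.9%). The 117 peaks of the last part came from 76 genes, so the excess was spread widely, whereas 38 genes had a peak in the first part.

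Strand was known for 167 of the 210 genes, and the other 43 were read from the lower coordinate. In the 167 alone, the last 10% held 96 of 512 peaks (18.8%) and the first 43 (8.40%), so that the orientation rests on genes with a known strand. In the 43 genes without one, the part named last is only the higher coordinate. It held 21 of 114 peaks (18.4%, adjusted p = 0.0139, exact two-sided binomial test), and the part named first held 11 (9.65%). These 114 peaks are among the 626, so the pooled share includes genes of unknown orientation. The concentration was not seen in giants alone: in 538 genes of 200 to under 500 kb with a known strand, the last 10% held 16.9% (14.8 to 19.1%) and the first 10.2% of 1232 peaks. Whether the classes differ was not tested.

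**Figure D4:**
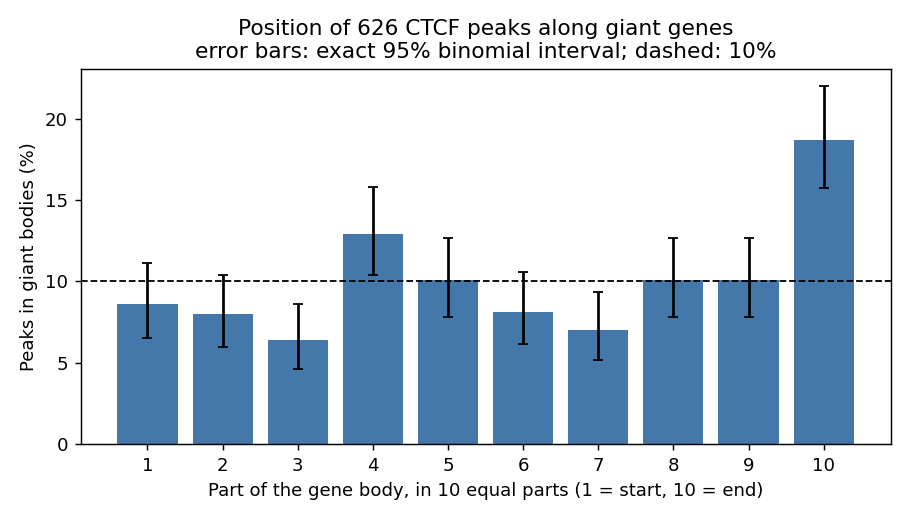
Percentage of the 626 peaks in each of 10 equal parts of the giant body, from the start (1) to the end (10), with exact 95% binomial intervals and a dashed line at 10%. For 43 genes without a known strand, part 1 is at the lower coordinate. The last bar, 18.7%, is the highest, and the first, 8.63%, includes 10% in its interval.

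Slit3, which encodes a secreted axon guidance ligand, had 4 peaks in the last 10% of its body. In this gene of 587 kb they lay at 544, 546, 572 and 582 kb from the start, and its only other peak lay at 330 kb. Lsamp had 3, at 2181, 2186 and 2188 kb of its 2197 kb.

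Measured in kb from the ends of the 167 genes, the 2 ends differed at 10 to 25 kb inside the body. These distance classes were not among the planned comparisons. They were not tested, and no allowance was made for their number. From 10 to 25 kb inside the transcription start there were 4 peaks, or 0.160 per 100 kb (0.0435 to 0.409), and from 10 to 25 kb inside the gene end there were 26, or 1.04 (0.678 to 1.52). The intervals did not overlap. In the outermost 10 kb of the body the intervals of both ends overlapped, with 0.898 per 100 kb at the start and 1.02 at the end, and so did those of the 10 kb just outside, with 1.02 and 1.14. From 100 to 250 kb into the body the rates were 0.299 and 0.375, both lower, with intervals that did not overlap, than the 0.639 and 0.683 found 100 to 250 kb outside the gene. At both ends the rate in the outermost 10 kb of the body lay above that 100 to 250 kb inside, with intervals that did not overlap. Its intervals overlapped those 100 to 250 kb outside the gene. Further in than 25 kb, the intervals of the 2 ends overlapped, with 0.311 at the start and 0.695 at the end from 25 to 50 kb, and 0.311 and 0.491 from 50 to 100 kb.

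**Figure D5:**
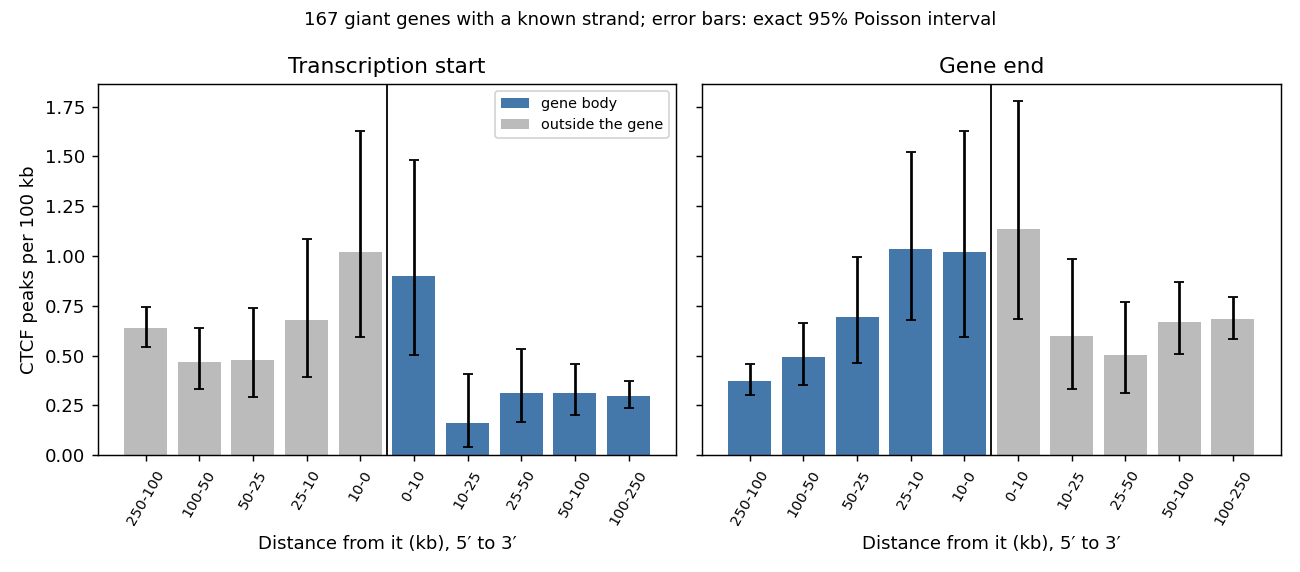
Peaks per 100 kb by distance from the transcription start (left) and the gene end (right) of 167 giant genes, in the gene body (blue) and outside it (grey), with exact 95% Poisson intervals. At 10 to 25 kb inside the start the rate is 0.160, and at 10 to 25 kb inside the end it is 1.04. In the other body classes the intervals of both ends overlap.

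Few gene ends held a peak. Of the 167 genes, 7 (4.19%, 1.70 to 8.45%) had a peak within 1 kb of the start, and these were Atrnl1, Car10, Erc2, Grm8, Kalrn, Lsamp and Sox6. The share among 16290 other protein-coding genes with a known strand was 8.13%. None of the 167 giants had a peak within 1 kb of its end, which allows up to 2.18% by the exact interval, against 4.97% of the others. The 43 giants without a known strand were not counted at either end. In genes of 200 to under 500 kb the shares were 6.51% at the start and 2.42% at the end (1.29 to 4.10%). The giants' interval at the end overlaps that of this class, and their interval at the start includes both its share and the 8.13% of all others. Within 5 kb, 10.8% of the 167 giants had a peak at the start (6.51 to 16.5%) and 7.19% at the end (3.77 to 12.2%). Among all others the shares were 20.6% and 20.7%, above both intervals. In genes of 200 to under 500 kb they were 17.5% and 13.6%, with intervals that overlapped those of the giants. Of the 626 peaks in giant bodies, 22 (3.51%) lay within 1 kb of an end of any annotated gene, compared with 16.5% of all autosomal peaks, and 49 (7.83%) lay in the body of another annotated gene. Most bases of a body of 500 kb or more lie away from the gene's own ends. The share of giant bases within 1 kb of any gene end was not computed, so the 3.51% does not measure avoidance of gene ends.

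RefSeq promoter windows, 250 bases before to 50 after a transcription start, were given for the same 167 genes on GRCm38.p6, 267 windows in all. A peak overlapped 3 of them (1.12%), against 3.72% of 31396 autosomal windows. No window was given for the other 43 giants, so their promoters were not searched. These 3 are shown because they are the only ones of the 267 windows that a listed peak overlaps. Capitals mark the bases under the peak, 5′ to 3′ on the gene's strand. They belong to the synaptic adhesion gene Nlgn1 (chr3:26153937-26154236, minus strand), the active-zone scaffold gene Erc2 (chr14:27622157-27622456, plus strand) and Lsamp (chr16:39984114-39984413, plus strand).
Nlgn1: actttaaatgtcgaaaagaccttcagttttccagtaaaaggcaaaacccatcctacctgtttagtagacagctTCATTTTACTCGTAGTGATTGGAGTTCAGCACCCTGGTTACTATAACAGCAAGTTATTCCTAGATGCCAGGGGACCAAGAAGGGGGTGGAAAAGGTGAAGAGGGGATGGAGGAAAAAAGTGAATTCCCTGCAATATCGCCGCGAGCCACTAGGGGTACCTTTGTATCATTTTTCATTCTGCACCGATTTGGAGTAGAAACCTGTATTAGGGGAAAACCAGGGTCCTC
Erc2: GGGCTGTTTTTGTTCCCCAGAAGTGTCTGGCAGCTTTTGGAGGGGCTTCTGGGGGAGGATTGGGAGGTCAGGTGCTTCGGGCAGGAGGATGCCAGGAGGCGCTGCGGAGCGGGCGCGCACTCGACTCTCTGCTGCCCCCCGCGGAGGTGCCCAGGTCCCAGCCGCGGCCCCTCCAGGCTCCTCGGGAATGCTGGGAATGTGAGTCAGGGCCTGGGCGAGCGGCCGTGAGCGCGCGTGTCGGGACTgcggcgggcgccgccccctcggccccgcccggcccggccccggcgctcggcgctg
Lsamp: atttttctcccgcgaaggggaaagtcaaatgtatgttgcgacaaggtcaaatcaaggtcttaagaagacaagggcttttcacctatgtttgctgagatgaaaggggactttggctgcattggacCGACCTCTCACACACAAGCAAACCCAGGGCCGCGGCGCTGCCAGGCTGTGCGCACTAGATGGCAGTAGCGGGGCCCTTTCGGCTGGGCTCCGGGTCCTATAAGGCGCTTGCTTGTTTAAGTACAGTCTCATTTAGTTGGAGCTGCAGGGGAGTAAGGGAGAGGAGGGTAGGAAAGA

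The Nlgn1 window belongs to an internal start 179 kb into the gene, and those of Erc2 and Lsamp lie at the outer start. The peak covers 227, 245 and 176 bases of the windows in that order, and they differ in composition, with 44.7%, 73.7% and 53.0% G and C. The CTCF core motif was searched on both strands in a strict form, found in 2.43% of 32851 windows of all genes, and in a looser form that includes it, found in 8.61%. None of the 3 windows held either. A shorter form, which drops the first base of the strict one, was added after the windows had been read. It was found in 6.41% of all windows, in 18 of the 267 giant windows, and in Lsamp, as CACTAGATGGC within the capitals. The strict form occurred in 3 other giant windows, as CCAGCAGTGGGC in Etl4 and, read on the opposite strand, as GCCTCCTCGTGG in Pcdh15 and GCCCGCTCCTGG in Mast4, and no peak overlapped any of these windows. A match describes letters and not a bound site, and no match says only that these letters are absent from the window.

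Peaks in giant bodies were narrow. The median giant peak spanned 244 bp, with quartiles of 208 and 283 bp, against 263 bp (217 and 318 bp) for the 21928 other autosomal peaks, and 5 of them (0.799%) reached 500 bp, against 4.14% of the others. The widest, of 1129 bp, lay in Dock2, a gene outside the naming rule. Width is given as a description, with no test.

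By function, giants that encode scaffolds, signalling enzymes and GTPase regulators were the fullest. Of these genes none lay above the rate in the test, and 2 (5.13%, beside 14.8% of all giants) lay below it, Dlg2 and Lingo2. The 39 genes of this list had a median of 0.504 peaks per 100 kb, beside 0.264 for all giants. They include Nav2, Camta1, Kalrn, Cdk14 and Pard3, and 3 of them were empty. By what the proteins are known to do, Camta1 is a transcription activator and Lingo2 a membrane protein of neurons, so the list is a mixed one. The 51 genes of synaptic and neuronal adhesion were emptier, with a median of 0.196. In that list 15 (29.4%, beside 14.8% of all giants) lay below the rate, among them Ptprd, Cntnap2, Robo2, Ctnna3, Tenm3, Nkain2, Dcc and Pcdh9, and 8 were empty, while Kirrel3 at 1.62 and Slit3 at 0.852 led it. The median length of the adhesion genes was 974 kb against 689 kb for the scaffold genes. Longer genes pass the test more easily, and peak density itself fell with length among giants. The lists were not compared at equal length. These medians are descriptions of lists drawn up with earlier results of these data known, and no list was tested.

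Ion channels and transmitter receptors, 24 genes, had a median of 0.264, the same as all giants, and none passed the test in either direction. Asic2 led them, followed by the L-type calcium channel gene Cacna1c with 6 peaks (0.983 per 100 kb), the potassium channel auxiliary gene Dpp6 with 6 (0.659) and the cation channel gene Trpm3 with 5 (0.583). Of 18 genes for transcription and RNA-binding regulators, 3 (16.7%) passed below the rate, near the 14.8% of all giants, and 5 were empty. Among these 3 was the RNA-binding gene Celf2 with 0 peaks in 857 kb, which did not pass with the rate of the autosomal span (adjusted p = 0.0884, exact Poisson test), without chromosome 11 (0.0602) or with wide peaks (0.747). Smyd3 led them, followed by the nuclear receptor gene Rora with 8 (1.09), Rbfox1 and Nfia with 4 (0.740).

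Of 16 genes for extracellular matrix, cytoskeleton and muscle membrane, 3 (18.8%) passed below the rate, near the 14.8% of all giants, and the median was 0.199. Thsd4 led this list, followed by St6galnac3 with 5 peaks (0.949 per 100 kb), the nuclear envelope gene Syne1 with 4 (0.754) and Adamtsl1 with 5 (0.547). Sgcz, Nell1 and Hs6st3 had no peak. The 34 giants listed as genes at known common fragile sites had a median of 0.226. They included 13 of the 31 genes below the rate (38.2% of the list), among them Lrp1b, Fhit, Naaladl2, Macrod2, Csmd1 and Dlg2. No source was recorded for this list, and breakage was not measured in these cells. The median length of the listed genes was 1193 kb. Longer genes pass the test more easily, and peak density fell with length among giants. Of all 55 giants spanning 1000 kb or more, 26 lay below the rate in the test. Fragile-site giants were not uniformly empty: Wwox, an oxidoreductase gene at one such site, had 10 peaks in 913 kb (1.10 per 100 kb), close to the 10.3 given by the rate. A gene can stand in several of these lists.

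Giants were also paired by a shared symbol stem, which does not by itself make 2 genes paralogs. Of 61 such pairs, from 30 stems, 2 (3.28%) differed in peaks per length after Benjamini-Hochberg adjustment by the exact two-sided binomial test. Nav2, with 16 peaks, exceeded Nav3, with 3 peaks (2.46 against 0.387 per 100 kb, adjusted p = 0.0468 by the exact test). Tenm2, with 9 peaks, exceeded Tenm3, with 0 (0.731 against 0, adjusted p = 0.0468 by the exact test). Magi1 with 6 peaks and Magi2 with 4 stood at 0.986 and 0.269, which did not pass (adjusted p = 0.346 by the exact test). Both pairs differ in chromosome too. Nav2 lies on chromosome 7 with flanks at 2.40 per 100 kb and Nav3 on chromosome 10 with flanks at 0.400, while Tenm2 lies on chromosome 11 and Tenm3 on chromosome 8, each with flanks at 0.800. Against the rate of chromosome 11 Tenm2 itself lay below, at 0.302 times the peaks given by length (adjusted p = 0.0122, exact Poisson test). Nav3, Magi1 and Magi2 fall outside the naming rule and were chosen for their place in these pairs. The test of pairs was added after the data had been seen.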

How the data were processed

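The deposited data used were 1 list of CTCF peak intervals for the whole series. The authors' list gives chromosome, start and end only, so its unit is a position (other), and nothing in it is normalised. STAR, Picard, MACS2 and the builds mm10 and dm6 are listed, per the submitters' processing notes, with no version and no stated use. The peak threshold, the way of merging and any use of the Drosophila spike-in: not given in the sources used here. Depth per sample is unknown.

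Positions were counted from 1. Genes came from NCBI RefSeq for GRCm38.p6. On chromosomes 1 to 19, 328 genes below 3 Mb, outside the assembled sequence, were left out. A peak was counted by its midpoint, and each peak and base once in pooled rates. Rates were compared by the exact two-sided binomial test, and genes by the exact two-sided Poisson test, as double the smaller tail. The Benjamini-Hochberg threshold was 0.05 and intervals were 95%. The per-gene test was tested on simulated data and made calls in numbers within sampling error of its exact power. Strand came from the promoter table. Tools were Python 3.11.15, scipy 1.17.1, numpy 2.4.6 and pandas 2.3.3.

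Named genes were the 10 densest, the 10 longest, the 10 longest empty, the 5 with the longest peak-free stretch, up to 4 densest and 3 longest empty of each list, and Lrp1b, Fhit and Asic2. Others in the text illustrate a count or lie at the length threshold, and were chosen with their values seen. The genes and lists were chosen with earlier results of these data known. Alternatives were any overlap in place of midpoints, wide peaks, merging of near neighbours, other length limits, rates and flanks, leaving out chromosome 11, and 5 in place of 10 parts of the body.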

Additional observations from a re-analysis of the deposited data

How the results depend on the processing

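No paired analysis was possible because the 1 peak list carries no sample names, and for the same reason no library could be left out. The ratio of giant to other bodies stayed below 1 under each alternative run (0.192 to 0.471), as did the ratio of body to flank (0.457 to 0.602), and the last of 10 parts stayed above its even 10% (17.9 to 19.8%) and the last of 5 parts above its even 20% (28.8%), all past the threshold. The count of giants below the rate was 4 with peaks of at least median width, 15 with the rate of the autosomal span and 17 without chromosome 11, in place of 31. The first 2 test against fewer expected peaks, and so does the third, since chromosome 11 is the richest. The count above the rate, 0 as reported, was 1 with the autosomal span (Asic2) and 2 with genes of 400 kb or more. The share of the first 10% was 10.1% with genes of 400 kb or more, just above an even spread, and with 5 equal parts the first held 16.6%, below the even 20% (adjusted p = 0.0357, exact binomial test). Some named genes crossed the rate without passing the test, and not all of them had been close to it. As ratios of peaks to the number given by length, with the autosomal span Cacna1c was 1.05, Rora 1.16, St6galnac3 1.01 and Wwox 1.17. With the own chromosome's rate Atrnl1 was 0.855, Cacna1c 1.10, Rora 1.15, St6galnac3 1.11 and Wwox 1.10. Without chromosome 11 Rora was 1.03 and Wwox 1.04. With wide peaks Camta1 was 0.860, Pard3 0.628, Ptprm 1.00, Smyd3 0.609 and Thsd4 0.621. Named genes lost their call below the rate most often with wide peaks, in 14 genes (adjusted p 0.0848 to 0.747, exact Poisson test), and in 5 with the autosomal span, 4 with the own chromosome's rate, 4 without chromosome 11 and 1 with near neighbours merged. Lsamp (any overlap), Tenm2 (own chromosome) and Asic2 (autosomal span) gained one. The missing peak heights limit what an empty body means.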
